A study of Homo sapiens with 6 samples.

Results

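The 9 genes CDKN1A, MDM2, GDF15, SESN1, BAX, BBC3, ZMAT3, RRM2B and FAS are transcriptional targets of the tumour suppressor p53. They were chosen by symbol from 16655 genes measured in HEK-293T cells, and each was found once in the table. HEK-293T is a cell line from human embryonic kidney with the SV40 large T antigen. RNA-seq was done on cells transfected by lipofection with pEGFP-C1-RfA1, which expresses GFP-tagged reflectin A1 of squid (the RfA1 group, n = 3), or with the empty pEGFP-C1 vector, which expresses GFP (the GFP group, n = 3), and the sample labels give 24 h of culture after transfection. Both groups therefore carried large T antigen, GFP and the transfection itself, and no untransfected cells were analysed here. Expression from the plasmids was transient, and the transcripts of GFP, RfA1 and large T antigen were not analysed here.

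p53 is a transcription factor that binds DNA as a tetramer and switches on genes that stop the cell cycle, repair DNA or start apoptosis. Among them is MDM2, the ubiquitin ligase that marks p53 for destruction and so closes a feedback loop. Large T antigen binds the DNA-binding domain of p53, and HEK-293T cells hold abundant p53 protein that is bound in this way, with a damped response of its target genes.

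The p53 response element is made of a pair of adjacent half-sites of 10 bases each. A search of the RefSeq windows on GRCh38.p14, from 250 bases before to 50 bases after each transcript start, found a match in 4 of the 8 target genes that have such a window. RRM2B has none in the reference used. A match kept the C and the G at the core of each half-site and had at most 3 mismatches in 20 bases, a limit that was set after matches had been seen. The element reads the same on both strands, so 1 search covered both. Across the genome 1.12% of 35116 windows and 1.37% of 27305 genes held a match. The matched sites are shown because they are the letters through which p53 could read these genes, with the element in capitals, 5′ to 3′ on the strand of the gene.
MDM2 (chr12:68808883-68808982, plus strand): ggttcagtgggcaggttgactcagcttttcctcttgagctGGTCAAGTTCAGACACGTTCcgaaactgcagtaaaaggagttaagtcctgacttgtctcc
FAS (chr10:88991269-88991368, plus strand): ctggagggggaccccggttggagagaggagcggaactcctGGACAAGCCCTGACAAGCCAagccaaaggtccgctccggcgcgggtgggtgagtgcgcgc
SESN1 (chr6:109008989-109009077, minus strand): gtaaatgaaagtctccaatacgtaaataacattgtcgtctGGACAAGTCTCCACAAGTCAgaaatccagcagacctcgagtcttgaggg
GDF15 (chr19:18386186-18386205, plus strand): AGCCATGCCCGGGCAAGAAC

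The MDM2 and FAS elements had 2 mismatches and the SESN1 and GDF15 elements 3. The first 3 stretches lay in introns of GENCODE release 29, and the GDF15 element lay in an exon. The MDM2 element began at -94 relative to one RefSeq transcript start and at -101 relative to another, the FAS element at -122 and the SESN1 element at -49. For CDKN1A, BAX, BBC3 and ZMAT3 the search says that no such letters stand in these short windows and nothing about p53 binding elsewhere. The matches are descriptions of the sequence, and binding was not measured.

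The libraries held 10272306 to 11566284 estimated counts. The tested targets had between 32 counts (FAS) and 590 counts (MDM2) in a library. The biological coefficient of variation of the whole fit was 8.83%. Of 13002 tested genes, 10 (0.0769%) had a Benjamini-Hochberg adjusted p under 0.05 by the quasi-likelihood test of edgeR, and 1812 (13.9%) had an unadjusted p under 0.05. The labels do not say whether libraries came from separate cultures, so p-values measure the spread between these samples, which may be technical. GC-rich genes stood apart between libraries. The mean level of genes of high GC content (57.0% or more), relative to that of genes of low GC content (42.1% or less), deviated by -0.08, 0.28 and 0.17 log2 units in GFP replicates 1 to 3 and by -0.24, 0.20 and -0.32 in RfA1 replicates 1 to 3. RfA1 replicate 2 thus lay with GFP replicates 2 and 3 on this axis. Without it 2636 of 13129 genes (20.1%) passed, and with a GC correction in each library 193 of 13002 (1.48%) did. In the fit without RfA1 replicate 2, the remaining RfA1 libraries lay below every GFP library on this axis. GC content and group therefore cannot be told apart in that fit, which bears on each adjusted p given from it below. The source of the GC difference was not tested. The 7 HEK-293 markers on the list were present in each library at 3.43 to 724.25 TPM, the authors' abundance scaled by transcript length and library, with sums of 925.6 to 1110 in GFP cells and 966.4 to 1172 in RfA1 cells. VIM (577.99 to 724.25 TPM) made up most of each sum. PAX2 (3.43 to 6.16 TPM) and LHX1 (5.16 to 6.69 TPM) lay below the fibroblast marker COL1A1 (8.2 to 10.05 TPM), and the other HEK-293 markers lay above it. The blood marker sum was at most 1.39 TPM and the liver marker sum at most 1.94 TPM, PTPRC was at 0 in 5 libraries, and fibroblast markers, mostly COL1A1, summed to 9.01 to 10.89 TPM.

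The p53 target genes were expressed in both groups, and their order was the same in both on the TPM scale, which is per transcript length. BAX stood highest in GFP cells at 79.5 ± 5.97 TPM (SD, n = 3). CDKN1A followed with 18.8 ± 2.27 TPM, BBC3 with 18.5 ± 2.42 TPM and SESN1 with 15.7 ± 2.19 TPM. These 3 neighbours could not be placed in order, since the GFP libraries of CDKN1A overlapped those of BBC3, and those of BBC3 overlapped those of SESN1. MDM2 lay at 8.21 ± 0.501 TPM, RRM2B at 5.27 ± 0.832 TPM, ZMAT3 at 2.54 ± 0.171 TPM, FAS at 2.04 ± 0.355 TPM and GDF15 at 0.553 ± 0.133 TPM. ZMAT3 and FAS overlapped, and the other neighbours in this order were separate in the GFP libraries. In RfA1 cells the means ran from 81.2 ± 5.63 TPM for BAX to 0.717 ± 0.307 TPM for GDF15, and the neighbours that overlapped were CDKN1A with BBC3 and ZMAT3 with FAS.

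**Figure D1:**
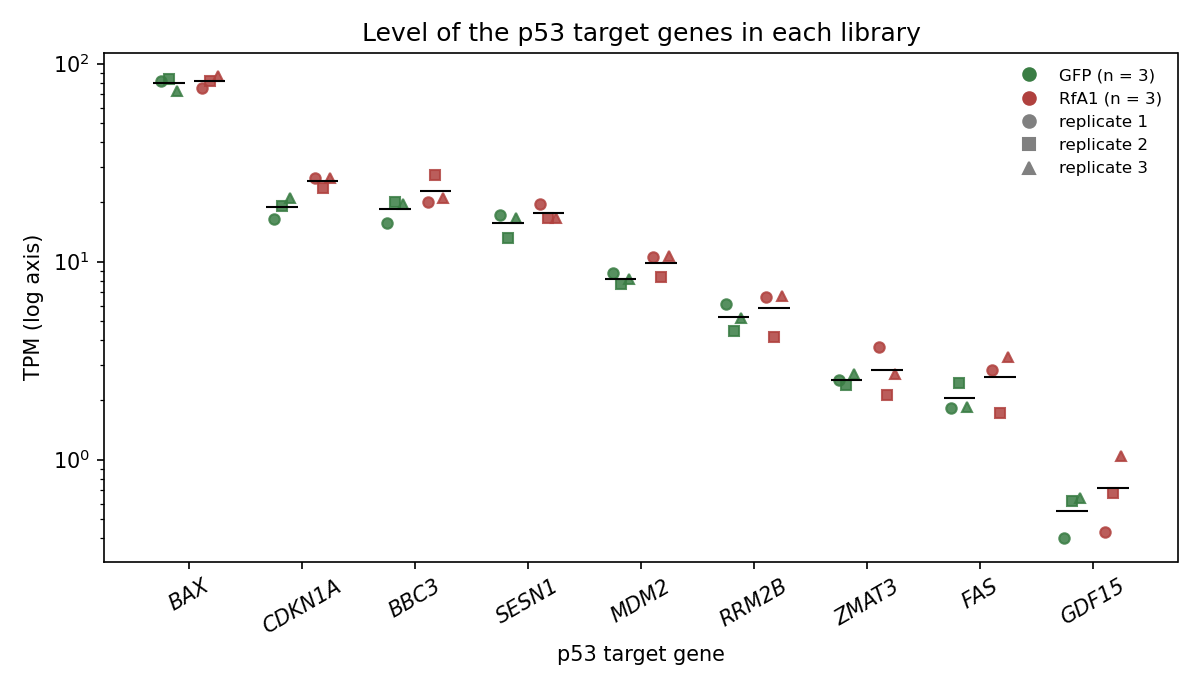
TPM of the 9 p53 target genes (log axis) in the 3 GFP and 3 RfA1 libraries, with 1 point per library, its shape giving the replicate number, and a black line at the mean of each group. Levels run from BAX near 80 TPM down to GDF15 below or near 1 TPM, and CDKN1A is the gene whose RfA1 libraries (23.44 to 26.54 TPM) lie wholly above its GFP libraries (16.36 to 20.85 TPM).

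None of the 8 tested targets had an adjusted p under 0.05 by edgeR, where 0.0769% of all genes did. DESeq2 and limma-trend on TPM also called 0 of them. At an unadjusted p under 0.05 there was 1, CDKN1A, against a background of 13.9%. On the scale of CPM, counts scaled by TMM library size, 2 of the 8, CDKN1A and MDM2, had RfA1 libraries wholly above the GFP libraries, where 9.86% of all genes did, and 0 of the 8 had them wholly below, where 8.01% did. The log2 fold change (RfA1 against GFP) was positive for 7 and negative for 1, and its median was 0.145, against -0.0024 over all tested genes, of which 49.5% were positive. The median of the 8 ran from 0.08 without RfA1 replicate 1 to 0.23 without RfA1 replicate 2, and it was 0.07 with the GC correction.

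CDKN1A (NCBI Gene 1026) encodes p21, the inhibitor of cyclin-dependent kinases through which p53 stops the cell cycle. Its level was 21.77, 26.92 and 28.34 CPM in GFP replicates 1 to 3 and 33.49, 32.69 and 33.54 CPM in RfA1 replicates 1 to 3. The RfA1 libraries lay close together and wholly above the GFP libraries, of which replicate 1 was lowest. The difference was 1.29-fold, a log2 fold change of 0.37 ± 0.11 (SE), with an adjusted p of 0.25 in edgeR's test. On the TPM scale the groups were also separate, with 16.36, 19.14 and 20.85 TPM in GFP libraries and 26.31, 23.44 and 26.54 TPM in RfA1 libraries. The call depended on the fit. CDKN1A has 58.1% GC, and with the GC correction it was at 22.24, 24.70 and 26.77 CPM in GFP libraries and 36.03, 31.19 and 36.90 CPM in RfA1 libraries, with a log2 fold change of 0.49 ± 0.09 and an adjusted p of 0.00975 by edgeR. Without RfA1 replicate 2, where GC content also separated the groups, edgeR gave 0.38 ± 0.11 and an adjusted p of 0.0206. Without any other single library the adjusted p by edgeR lay between 0.25 and 0.725. The log2 fold change then ran from 0.265 ± 0.101 without GFP replicate 1, the lowest GFP library, to 0.449 without GFP replicate 3.

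MDM2 (Gene 4193), the ubiquitin ligase of the feedback loop, was at 46.06, 43.07 and 44.67 CPM in GFP libraries and 53.70, 46.32 and 52.98 CPM in RfA1 libraries. The groups were separate by a narrow margin, with RfA1 replicate 2 just above GFP replicate 1. The log2 fold change was 0.19 ± 0.09, with an adjusted p of 0.369 by edgeR. On the TPM scale the groups overlapped, since RfA1 replicate 2 at 8.41 TPM lay below GFP replicate 1 at 8.73 TPM. Without RfA1 replicate 2 the log2 fold change was 0.26 ± 0.09 and the edgeR adjusted p 0.04. With the GC correction (MDM2 has 41.9% GC) the levels were 45.09, 46.18 and 46.20 CPM in GFP libraries and 50.32, 48.93 and 49.29 CPM in RfA1 libraries. The groups were then separate with a smaller log2 fold change, 0.11 ± 0.07, and an adjusted p of 0.43 by edgeR.

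ZMAT3 (Gene 64393), an RNA-binding zinc finger protein that also acts on p53 feedback, was at 15.65, 15.53 and 17.30 CPM in GFP libraries and 21.93, 13.82 and 16.01 CPM in RfA1 libraries. The RfA1 libraries spanned the GFP range on both sides, and replicate 1 was the high one. Its log2 fold change was 0.10 ± 0.16 (adjusted p of 0.79 by edgeR), and it was -0.12 without RfA1 replicate 1.

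Of the 3 apoptosis genes, BBC3 (Gene 27113) encodes PUMA, a BH3-only protein that sets free BAX and BAK1. It was at 15.74, 21.36 and 21.54 CPM in GFP libraries and 19.11, 30.41 and 19.91 CPM in RfA1 libraries. RfA1 replicate 2 stood above the other 5 libraries, which overlapped between groups. The log2 fold change was 0.24 ± 0.18, with an adjusted p of 0.54 by edgeR, and without RfA1 replicate 2 it was -0.0031 ± 0.13. BBC3 has 69.7% GC, the highest of the 9 genes. With the GC correction it was at 17.20, 18.09 and 18.55 CPM in GFP libraries and 22.89, 25.46 and 24.92 CPM in RfA1 libraries. On that scale the groups were separate, the spread within them was smaller, and the log2 fold change was 0.44 ± 0.09 with an adjusted p of 0.016 by edgeR. The BBC3 value thus ranged from about no difference to 0.44 with the treatment of GC content and of 1 library.

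**Figure D2:**
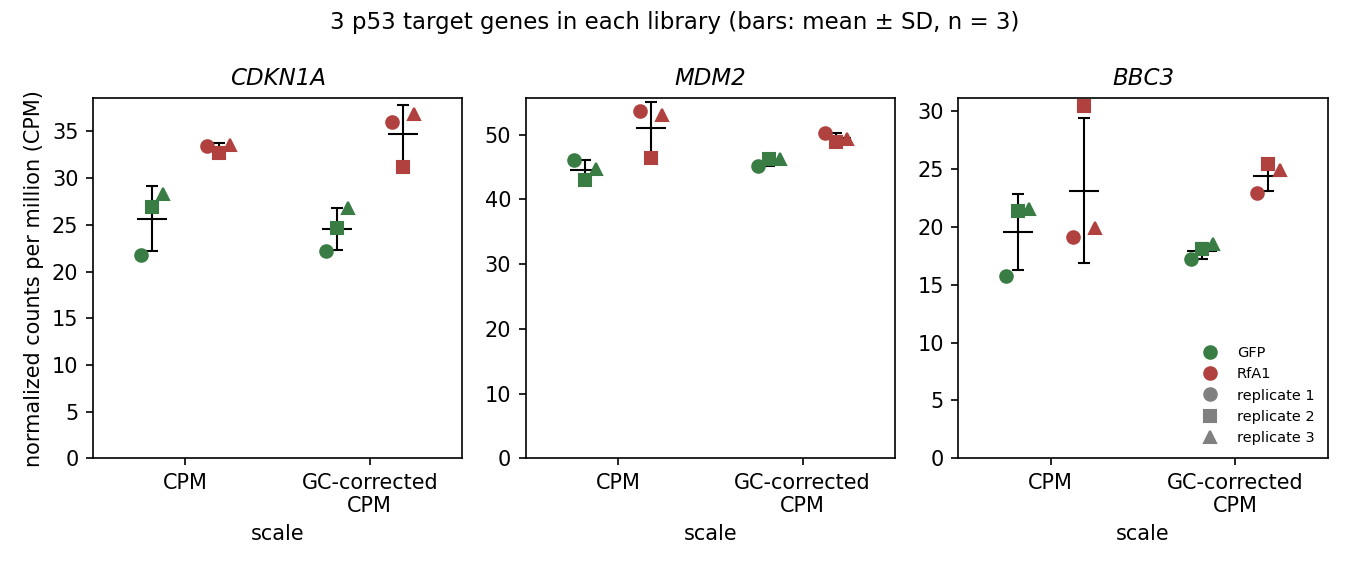
Normalized CPM of CDKN1A, MDM2 and BBC3 in each library, without (left in each panel) and with (right) the GC correction, with 1 point per library and bars for the mean ± SD of 3 libraries. The RfA1 libraries of BBC3 overlap GFP at 19.11 to 30.41 CPM before the correction and lie at 22.89 to 25.46 CPM, above GFP, after it, while those of CDKN1A lie above GFP on both scales.

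BAX (Gene 581), the pore-forming protein of the outer mitochondrial membrane, was at 44.62, 46.69 and 41.32 CPM in GFP libraries and 36.31, 42.99 and 43.16 CPM in RfA1 libraries. RfA1 replicate 1 was the lowest library, and the groups overlapped. This gave a log2 fold change of -0.12 ± 0.10, with an adjusted p of 0.592 by edgeR. BAX was the 1 tested target with a negative value, and the sign turned on the TPM scale (0.03) and with the GC correction (0.01). On the TPM scale the median over all tested genes was itself 0.045 with log2(TPM + 1), so BAX still lay below it. In TPM it was at 81.97, 83.88 and 72.72 in GFP libraries and 75.29, 81.98 and 86.47 in RfA1 libraries, which overlapped as well.

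FAS (Gene 355), the death receptor at the cell surface, was at 3.33, 4.50 and 3.27 CPM in GFP libraries and 4.91, 3.05 and 5.53 CPM in RfA1 libraries. RfA1 replicate 2 was the lowest of the 6 libraries and RfA1 replicate 3 the highest. The difference was 0.28 ± 0.24 on the log2 scale, with an adjusted p of 0.585 by edgeR. FAS had the largest standard error and the lowest counts of the tested targets. Its log2 fold change was 0.49 without RfA1 replicate 2, 0.45 without GFP replicate 2, 0.11 without RfA1 replicate 3 and 0.17 with the GC correction, and it passed the adjusted p in none of these fits.

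SESN1 (Gene 27244) encodes sestrin 1, a stress protein that restrains mTORC1. It was at 32.56, 27.45 and 31.78 CPM in GFP libraries and 35.86, 32.41 and 29.16 CPM in RfA1 libraries. The groups overlapped, and the log2 fold change was 0.09 ± 0.11 (adjusted p of 0.729 by edgeR). It ran from 0.0073 without RfA1 replicate 1 to 0.16 without RfA1 replicate 3, and it was 0.02 with the GC correction. RRM2B (Gene 50484), the p53-induced small subunit of ribonucleotide reductase, which supplies nucleotides for DNA repair, was at 19.97, 15.27 and 17.22 CPM in GFP libraries and 20.39, 14.20 and 20.68 CPM in RfA1 libraries. Replicate 2 was the lowest library in both groups, and the log2 fold change was 0.08 ± 0.15 (adjusted p of 0.834 by edgeR).

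GDF15 (Gene 9518), a secreted stress cytokine, did not pass the filter on low counts and was not tested. Its counts were 3, 5 and 5 in GFP libraries and 3, 5 and 7 in RfA1 libraries. The sums were 13 in GFP libraries (exact Poisson 95% interval 6.92 to 22.2) and 15 in RfA1 libraries (8.4 to 24.7), which cover counting error alone. The intervals overlapped over most of their length, and no difference was detectable at this depth.

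**Figure D3:**
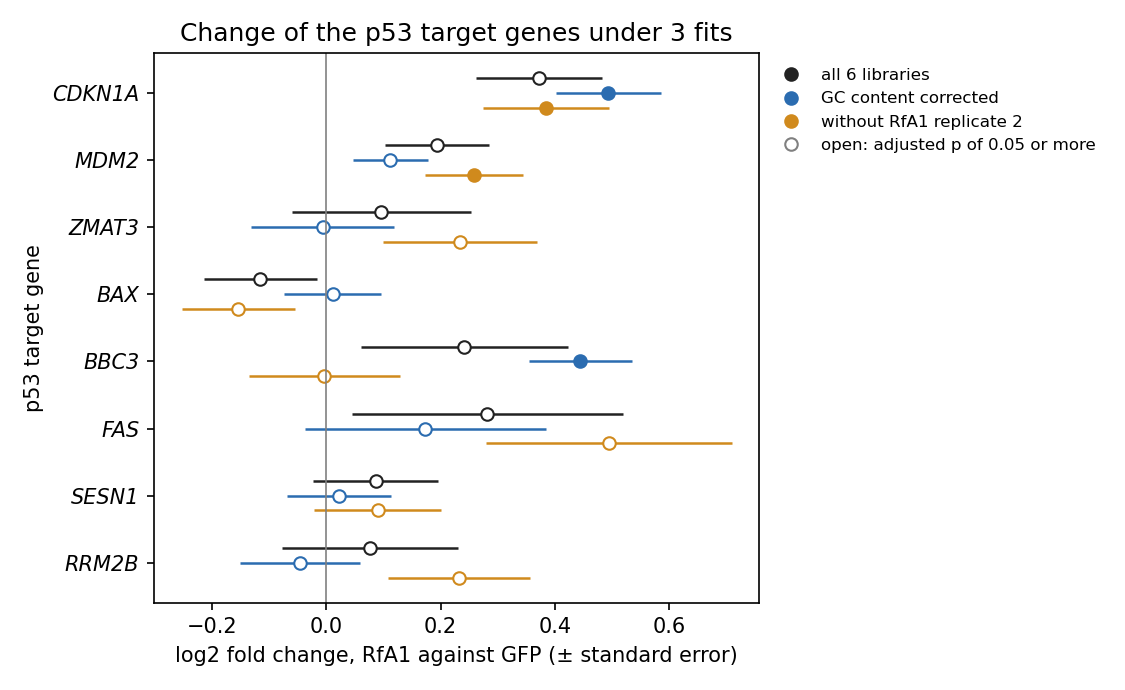
Log2 fold change (RfA1 against GFP) of the 8 tested p53 target genes with its standard error, from the edgeR fit of the 6 libraries (black), with a correction for GC content (blue) and without RfA1 replicate 2 (orange), where filled points passed an adjusted p of 0.05. CDKN1A has values of 0.37 to 0.49 in the 3 fits (0.265 without GFP replicate 1, which is not drawn), while BBC3 lies between -0.0031 and 0.44.

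The libraries in which the targets stood high differed from gene to gene. Over the 6 libraries BBC3 had the widest range, 0.95 log2 CPM, and FAS the next widest, 0.86. The 3 genes whose pattern over the 6 libraries was most like that of BBC3 were MED30, IQCJ-SCHIP1 and MAFA, with root mean square differences of 0.08 log2 units, out of 10527 genes compared. Each of these 3 had its highest value in RfA1 replicate 2, as MED30 did with 24.2 CPM against 14.6 to 19.2 CPM elsewhere. That follows from their choice by likeness to BBC3, which was highest in the same library. For FAS the most alike were ZCCHC10, LRRC57 and ZNF724 (0.13 to 0.15 log2 units, 10528 genes compared). The 6 points share depth and base composition, so this is a description of the libraries.

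The length of transcript that the authors' counting gave to a gene can be read back from its count and its FPKM, and it moves when reads are assigned to shorter or longer isoforms. For BAX this length was 760, 739 and 778 bases in GFP libraries and 706, 700 and 736 bases in RfA1 libraries. The RfA1 libraries were shorter in each case, by 45.1 bases or -5.95% on average, with an exact two-sided permutation p of 0.1, the smallest that 3 libraries against 3 allow. BAX was 1 of the 9 targets whose groups did not overlap in this length. Among 11495 genes with at least 1 FPKM in each library 10.3% did not overlap, and 5.92% differed by as much as BAX or more. Leaving out a library cannot make BAX overlap, since its groups were already separate, so that step does not test this difference. The targets that did not overlap were 2 (BAX and CDKN1A) without GFP replicate 2, where 2298 of the 11495 genes did not. They were 3 (BAX, MDM2 and SESN1) without RfA1 replicate 1, where 18.5% did not, and 2 (BAX and GDF15) without RfA1 replicate 3, where 17.8% did not. GDF15 lay at 0.29 to 0.72 FPKM, below the limit of 1 FPKM for the genes behind these shares. Its FPKM has 2 decimals, so its implied length is coarse and its separation may come from rounding. For CDKN1A the mean length was 1862 bases in both groups, and for MDM2 it was 7416 bases in GFP and 7357 bases in RfA1 libraries, with overlap. In bulk RNA, fewer cells that use an isoform and less of it per cell cannot be told apart.

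**Figure D4:**
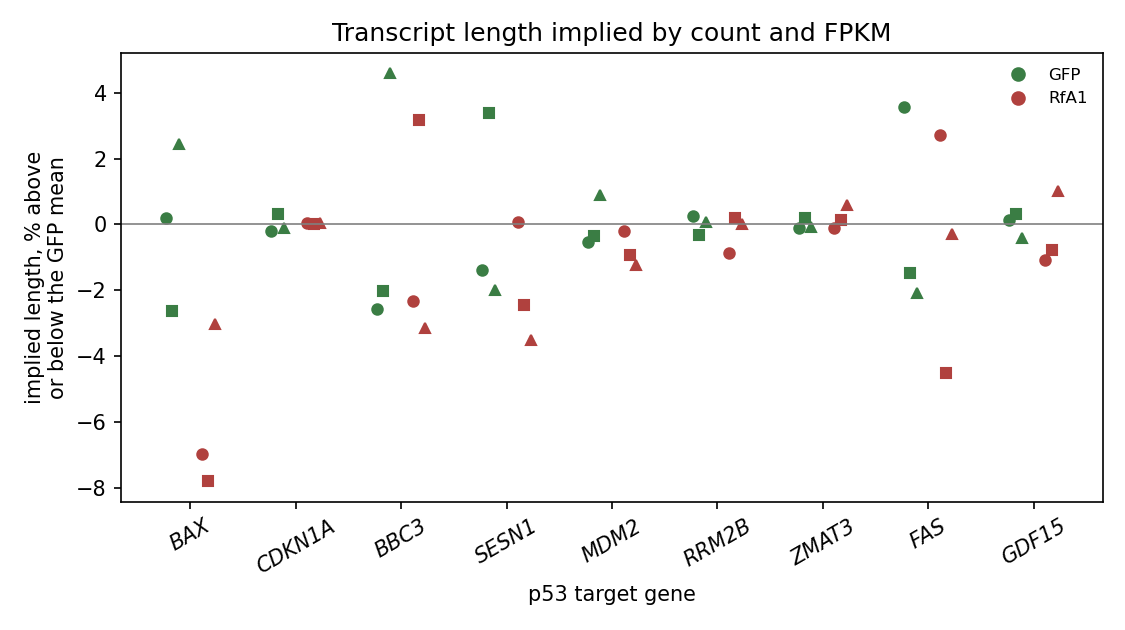
Transcript length implied by count and FPKM for each p53 target gene in each library, in percent above or below the gene's own mean in GFP cells, with 1 point per library and the replicate number given by the shape (circle 1, square 2, triangle 3). The 3 RfA1 libraries of BAX lie below its 3 GFP libraries, by -5.95% on average, whereas CDKN1A varies by 0.506% in all.

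A list of 37 other p53 targets gave 36 genes in the table, of which 33 were tested. In edgeR's test 0 of the 33 passed the adjusted p of 0.05, as in DESeq2 and limma-trend, and at an unadjusted p under 0.05 there were 5 with higher and 4 with lower levels in RfA1 cells, where 13.9% of all genes were at that level. The log2 fold change was positive for 17 and negative for 16, with a median of 0.01. By role, the genes at an unadjusted p under 0.05 were CCNG1 and PLK3 of 7 arrest genes, both with higher levels, and DDB2 and POLH of 5 repair genes, both with lower levels. They were TNFRSF10B (higher) and PIDD1 (lower) of 10 apoptosis genes, DDIT4 (higher) and FDXR (lower) of 5 metabolic genes, KITLG (higher) of 3 secreted factors and 0 of 3 feedback genes. With the GC correction 4 of the 33 passed, PLK3, DDIT4, DDB2 and POLH, against 1.48% of all genes, and without RfA1 replicate 2 there were 9, against 20.1% of all genes.

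PLK3, a stress-activated kinase, was at 5.85, 5.82 and 6.004 CPM in GFP libraries and 9.01, 9.53 and 7.43 CPM in RfA1 libraries. The groups were well separated, with a log2 fold change of 0.55 ± 0.15 and an adjusted p of 0.221 by edgeR (0.0131 with the GC correction and 0.0477 without RfA1 replicate 2). CCNG1, cyclin G1, had a log2 fold change of 0.26 ± 0.10 and an adjusted p of 0.307 by edgeR (0.00562 without RfA1 replicate 2). Its log2 fold change was 0.15 with the GC correction, and its adjusted p 0.21 by edgeR. DDIT4, an inhibitor of mTORC1 and the target with the highest level on this list (216 ± 26.5 TPM in GFP cells), had a log2 fold change of 0.30 ± 0.11 and an adjusted p of 0.294 by edgeR (0.00318 with the GC correction).

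Of the 5 repair genes 3 had negative and 2 positive log2 fold changes. DDB2, which recognizes damage from ultraviolet light, was at 24.29, 27.89 and 28.43 CPM in GFP libraries and 20.02, 20.78 and 19.06 CPM in RfA1 libraries. The RfA1 libraries lay wholly below, with a log2 fold change of -0.43 ± 0.10 and an adjusted p of 0.184 by edgeR (0.0304 with the GC correction and 0.00893 without RfA1 replicate 2). POLH, the polymerase that copies past such damage, was at 36.07, 35.39 and 35.49 CPM in GFP libraries and 29.85, 24.69 and 30.97 CPM in RfA1 libraries. These groups were separate too, with a log2 fold change of -0.32 ± 0.10 and an adjusted p of 0.259 by edgeR (0.0376 with the GC correction). SCO2, a copper chaperone of cytochrome oxidase with 100.1 ± 5.77 TPM in GFP cells, had -0.12 ± 0.12 and overlapping groups, with an adjusted p of 0.671 by edgeR (0.0408 without RfA1 replicate 2, at -0.28). With the GC correction its direction turned, with means of 50.1 CPM in GFP and 52.3 CPM in RfA1 libraries, and the groups overlapped.

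Of 17 tested regulators and relatives of p53, 0 passed the adjusted p in edgeR's test, DESeq2 or limma-trend. At an unadjusted p under 0.05 by edgeR there were 2, against 13.9% of all genes, both with higher levels in RfA1 cells. MDM4, the partner of MDM2 that masks the activation domain of p53, had 0.24 ± 0.09 and an adjusted p of 0.316 by edgeR, and USP7, which removes ubiquitin from p53 and MDM2, had 0.26 ± 0.09 and 0.267. CDKN2A, whose ARF product holds back MDM2, stood at 828 ± 48.9 TPM in GFP cells and 706 ± 111 TPM in RfA1 cells. These levels are of the whole gene, and the ARF transcript was not measured apart. The log2 fold change of CDKN2A was -0.27 ± 0.13, with an adjusted p of 0.369 by edgeR. Without RfA1 replicate 2 there were 4 of 17 that passed, MDM4, USP7, CDKN2A and KAT5, against 20.1% of all genes. Neither CDKN2A (-0.13) nor MDM4 (0.17) passed with the GC correction.

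The paralogs and partners of the targets gave 21 genes in the table, 20 tested, of which 0 passed the adjusted p in edgeR's test, DESeq2 or limma-trend. At an unadjusted p under 0.05 there were 2 with higher levels, CDKN1B and MDM4, and 1 with a lower level, BAK1, against 13.9% of all genes, and 3 of 20 passed the adjusted p without RfA1 replicate 2, against 20.1%. CDKN1B, the p27 relative of p21, stood at 0.24 ± 0.08 on the log2 scale (adjusted p of 0.278 by edgeR) with groups that did not overlap. CDKN1C (p57), of the same inhibitor family, had a log2 fold change of 0.09 ± 0.17 (0.26 with the GC correction). Among the sestrins, SESN2 was expressed more highly than SESN1 on the TPM scale, at 85.7 ± 6.04 TPM in GFP cells. The log2 fold changes of SESN2 and SESN3 were -0.05 ± 0.08 and 0.06 ± 0.11. BAK1, the other pore-forming protein beside BAX, had -0.19 ± 0.08 (adjusted p of 0.345 by edgeR) and did not overlap, but with the GC correction its value was -0.07 and the groups overlapped. PMAIP1 (NOXA), a BH3-only protein and p53 target like BBC3, had 0.16 ± 0.11 (0.04 with the GC correction), and RRM2, the cell cycle counterpart of RRM2B, had 0.14 ± 0.08.

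p21 can repress cell cycle genes through the DREAM complex, and 20 such genes were tested. Whether this route works in cells with large T antigen was not tested, so these genes are no measure of p21 activity here. In edgeR's test, DESeq2 and limma-trend 0 passed the adjusted p. At an unadjusted p under 0.05 by edgeR there were 2, against 13.9% of all genes. Both had higher levels in RfA1 cells, CDK1 (0.21 ± 0.08, adjusted p of 0.313 by edgeR) and KIF23 (0.19 ± 0.09, 0.356). CHEK1, the checkpoint kinase, had 0.20 ± 0.10 and 0.394. The median over the 20 genes was 0.06, with 13 positive and 7 negative, and 5 of 20 passed without RfA1 replicate 2, where 20.1% of all genes did. The values of CDK1, KIF23 and CHEK1 were 0.09, 0.12 and 0.12 with the GC correction.

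GDF15 and BBC3 can also be induced through the ATF4 branch of the stress response, so 10 genes under ATF4 were set beside the p53 targets. ATF3, a transcription factor induced by many stresses, passed the adjusted p. It was at 116.04, 110.49 and 110.45 CPM in GFP libraries and 172.55, 182.82 and 171.41 CPM in RfA1 libraries. The groups were far apart relative to their spread, and ATF3 rose 1.56-fold, a log2 fold change of 0.64 ± 0.08, with an adjusted p of 0.0109 by edgeR. The call was lost without GFP replicate 1 (adjusted p of 0.0676), GFP replicate 2 (0.141), GFP replicate 3 (0.213) or RfA1 replicate 1 (0.0958), at log2 fold changes of 0.63 to 0.67. The other 9 genes did not pass in the fit of 6 libraries. The median of the 10 was -0.02, with 5 positive and 5 negative. At an unadjusted p under 0.05 there were 3 with higher levels, ATF3, PPP1R15A (0.30 ± 0.09) and DDIT4 (0.30 ± 0.11), and 1 with a lower level, CHAC1 (-0.35 ± 0.11), against 13.9% of all genes. With the GC correction 3 of the 10 passed by edgeR, ATF3, PPP1R15A and DDIT4, against 1.48% of all genes, and without RfA1 replicate 2 the 3 were ATF3, CHAC1 (with a lower level) and PSAT1, against 20.1%.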

How the data were processed

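RNA-seq of HEK-293T cells (3 GFP and 3 RfA1 libraries) was analysed from 1 table that the authors deposited, with estimated counts that were not normalized (7.39% to 8.02% of them not whole), the authors' TPM and the authors' FPKM. The submitters' processing notes name HISAT and GRCh38.p13, and the counting tool and annotation were not given in the sources used here. Averages over replicates were not used.

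Counts were rounded, filtered with filterByExpr (minimum count 10, minimum total 15), normalized by TMM and compared between groups by the two-sided quasi-likelihood test of edgeR 4.0.16 (robust), p-values being adjusted over 13002 genes after Benjamini and Hochberg, in R 4.3.3. CPM were computed with TMM library sizes. Alternatives were DESeq2 1.42.0 without independent filtering, limma-trend 3.58.1 on log2(TPM + 1) or log2(TPM + 0.1), upper-quartile or library size scaling, other filters, the replicate number as a block, a GC correction (an offset from a 5-degree natural spline of each library's log2 CPM on the GC content of a GENCODE release 29 transcript, with 98.33% of genes matched) and each library left out. Sequences were from RefSeq. Scripts were tested on simulated data. No pair of libraries agreed within sampling noise.

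The 9 genes and the lists were chosen with earlier results of these data known. The genes named were the 9, MDM4, 7 paralogs, genes past the adjusted p or else the 3 with the smallest p in each list, and the 3 of highest TPM among the other p53 targets. Genes named for passing in an alternative were chosen after their values were seen, as were CHAC1, PPP1R15A and the genes given by role. 1 further gene of the lists is not reported here. Reads shared with close copies were assigned by the authors' counting.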

Additional observations from a re-analysis of the deposited data

How the results depend on the processing

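Of 448 values of 28 named genes under 16 alternatives, 391 kept their direction and side of the threshold, 30 passed it, 4 no longer passed and 23 turned sign. The cause of these changes was not tested. Genes past the adjusted p numbered 10 (8 higher) in the edgeR fit, 33 with DESeq2, 20 without a filter, 6 with upper-quartile scaling (4 higher), 4 with limma-trend, 193 with the GC correction, 2636 without RfA1 replicate 2 and 0 to 4 without any other library. Among the 8 tested targets 2 passed with the GC correction, against 1.48% of all genes, and 0 to 2 with a library left out. Without RfA1 replicate 2, where 20.1% of all genes passed, the other p53 targets had 9, the regulators 4, the paralogs 3, the DREAM genes 5 and the ATF4 genes 3. These lists had 0 without some other library. In the fit without RfA1 replicate 2, GC content also separated the groups. The other p53 targets had 4 and the ATF4 genes 3 with the GC correction. The median of the targets was 0.217 with log2(TPM + 0.1), 0.0673 with the GC correction and 0.0803 to 0.233 with a library left out. The median of the other p53 targets was -0.0105 without a filter, 0.0448 and 0.0456 on TPM and 0.00235 to 0.0397 with a library left out. Over all tested genes the median on TPM was 0.0452 with log2(TPM + 1) and 0.0516 with log2(TPM + 0.1), so on that scale the other p53 targets lay near all genes. The count of targets separate in implied length was 1 to 3.

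The sign turned for BAX on TPM (0.031 and 0.0313) and with the GC correction (0.011) and for SESN2 on TPM (0.00911 and 0.00922) and with the GC correction (0.081). On TPM both genes stayed below the median over all tested genes (0.0452 and 0.0516). With the GC correction it turned for ZMAT3 (-0.00641), RRM2B (-0.0461), SESN3 (-0.0552) and SCO2 (0.063). With a library left out the values ran from -0.00305 (without RfA1 replicate 2) to 0.362 for BBC3, from -0.0536 (without RfA1 replicate 2) to 0.236 for CDKN1C, from -0.118 (without RfA1 replicate 1) to 0.234 for ZMAT3, from -0.0193 (without RfA1 replicate 1) to 0.141 for SESN3 and from -0.0138 to 0.233 for RRM2B, whose sign turned without GFP replicate 2 (-0.0118), RfA1 replicate 1 (-0.00487) or RfA1 replicate 3 (-0.0138).

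The replicate numbers did not meet the condition for pairing, since same-numbered libraries had correlations of 0.166, 0.321 and -0.143, and not every library was most like the one with its number. With the replicate block 625 genes (4.81% of all tested) passed. Among them were 1 of the 8 tested targets (CDKN1A, adjusted p of 0.028 by edgeR), 5 other p53 targets, 2 regulators and 4 ATF4 genes. With the block and the GC correction 469 (3.61%) passed, of which 2 targets (CDKN1A and BBC3), 5 other p53 targets, 1 regulator and 3 ATF4 genes. In that fit the targets' median was 0.066 and the sign turned for BAX (0.0104), ZMAT3 (-0.0129), RRM2B (-0.0499), SESN2 (0.0835), SESN3 (-0.0558) and SCO2 (0.0633). Depth left GDF15 untested.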
